A study of Sus scrofa with 24 samples.

Results

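The 17-beta-hydroxysteroid dehydrogenase family was examined in the liver of pigs that had received testosterone or nandrolone esters. Its members were the 8 genes with an HSD17B symbol in the deposited tables, namely HSD17B2, HSD17B4, HSD17B6, HSD17B7, HSD17B8, HSD17B10, HSD17B11 and HSD17B12, out of 13463 genes listed, and all 8 passed the filter on low counts. One RNAseq library was made per pig from the Spigelian lobe of the liver of 24 growing hybrids (Large White and Landrace crossed with Duroc), all young and of the same age at the start. Sustanon, a mixture of testosterone esters, was injected into the muscle at 4 mg/kg body weight in 3 castrated boars, 3 sows and 2 uncastrated boars. Myodin, a nandrolone ester, was injected in the same way at 5 mg/kg in 2 castrated boars, 3 sows and 3 uncastrated boars. The untreated group held 3 castrated boars, 3 sows and 2 uncastrated boars, and every comparison with untreated pigs shares these animals. Castrated boars and sows have no testes and were pooled as 6 Sustanon, 5 Myodin and 6 untreated pigs, since the testes are the main source of testosterone in boars. Each treatment group was penned apart and the untreated pigs stood in another room, so treatment and housing cannot be told apart.

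Enzymes of this family are short-chain dehydrogenases that move hydrogen to or from the 17 position of steroids, and many of them act mainly on other substrates. HSD17B2 oxidises testosterone to androstenedione and estradiol to estrone, and so inactivates both hormones. HSD17B6 and HSD17B11 also oxidise androgens, whereas HSD17B7 serves cholesterol synthesis, HSD17B12 the elongation of fatty acids, HSD17B4 peroxisomal beta-oxidation, HSD17B8 mitochondrial fatty acid synthesis and HSD17B10 mitochondrial isoleucine breakdown. The liver is the main organ in which sex steroids are cleared.

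Counts summed to between 9267780 and 14017276 per library, with a median of 10260005. Hepatocyte markers were abundant in every group, the 1 pancreas marker in the tables, of 4 listed, reached at most 0.55 TPM (transcripts scaled to their length and to the depth of the library), and the 2 skeletal muscle markers, of 4 listed, summed to at most 1.91 TPM. The Y-linked gene KDM5D went against the labelled sex in 3 untreated libraries, with 0 counts in castrated boar 15, 35 in sow 16 and 95 in sow 18, where the other males had 36 to 82 and the other sows 0. These libraries were kept under their labels, and the calls that rest on them are also given without them. Liver was sequenced in bulk, so that fewer cells of a type and less RNA per cell cannot be told apart.

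In untreated castrated boars and sows, HSD17B11 and HSD17B10 were the most abundant members. Compared per transcript length, the median level was 1505 TPM for HSD17B11, 1105 for HSD17B10, 409 for HSD17B2, 269 for HSD17B6, 159.9 for HSD17B4, 144 for HSD17B7, 109 for HSD17B8 and 79.6 for HSD17B12. Neighbours in this order overlapped between pigs, except that every pig had more HSD17B10 than any pig had HSD17B2. HSD17B2 made up 10.2% ± 2.46 (SD, n = 6) of the summed TPM of the 8 members in these pigs. With Sustanon it was the least abundant member, at a median of 6.89 TPM and 0.544% ± 0.542 (SD, n = 6) of the sum, and no pig reached the level of HSD17B12. With Myodin its share was 2.81% ± 1.06 (SD, n = 5), and in untreated uncastrated boars it was 0.769% ± 0.840 (SD, n = 2). HSD17B10 was then first in castrated boars and sows with either treatment, at 864 TPM with Sustanon and 1055 TPM with Myodin, and overlapped with HSD17B11 in both. The summed level of the 8 members was 3596 TPM ± 240.4 (SD, n = 6) in untreated and 2543 TPM ± 345 (SD, n = 6) in Sustanon-treated castrated boars and sows.

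**Figure D1:**
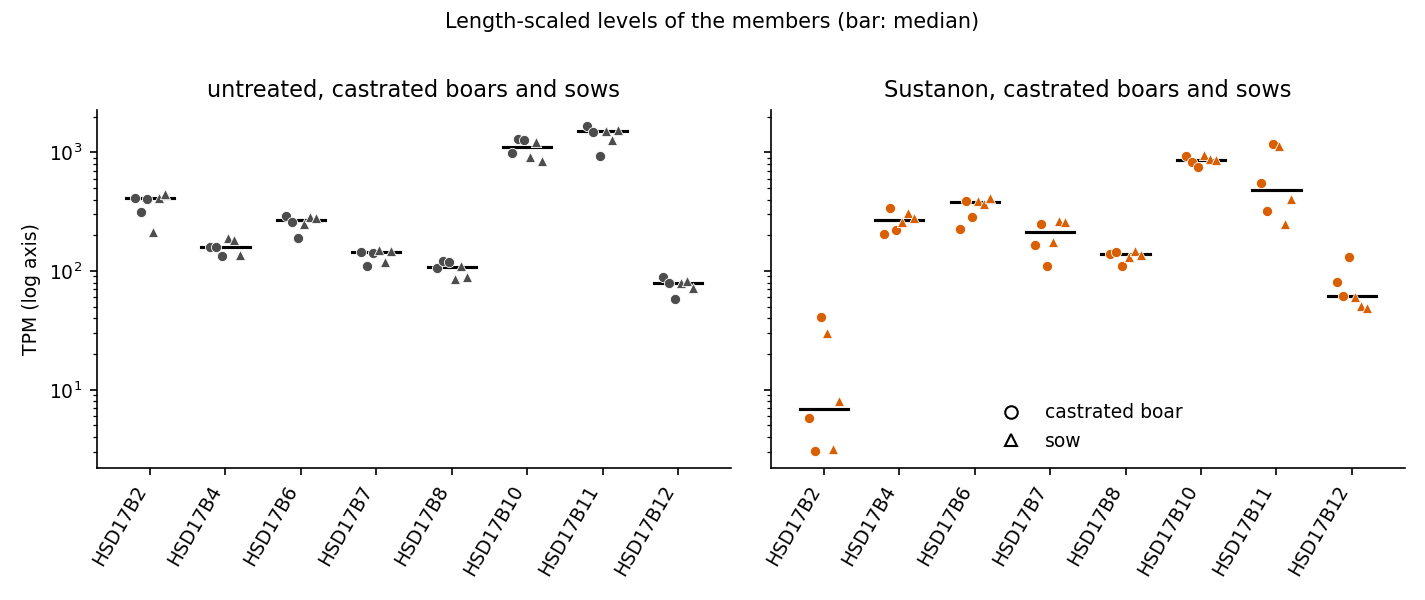
Level in TPM (log axis) of each member in each untreated (left) and Sustanon-treated (right) castrated boar (circle) and sow (triangle), with the median as a bar. HSD17B2 stood below HSD17B11 and HSD17B10 at a median of 409 TPM on the left and last at 6.89 TPM on the right.

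The effect of testosterone esters was read first in the pigs without testes. Of the 8 members, 2 were called in Sustanon-treated against untreated castrated boars and sows, HSD17B2 and HSD17B11, and both were lower. A gene was called when its Benjamini-Hochberg adjusted p was under 0.05 by edgeR's quasi-likelihood test and its log2 fold change was 1 or more in either direction. Of the 8754 genes tested 2.02% were called, 0.663% lower and 1.36% higher. HSD17B4 passed the adjusted p but not the fold change, and the other 5 members did not pass the adjusted p, which 5.43% of all genes passed. With all classes of pig together, the same 2 members were called lower with Sustanon, against 1.56% of 8279 genes called (0.544% lower and 1.01% higher), and HSD17B4 again passed the adjusted p with a smaller fold change, where 5.07% of genes passed the adjusted p. An unadjusted p under 0.05 was reached by 7 members in each comparison, and by 19% of genes in castrated boars and sows and 19.6% over all classes.

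HSD17B2 (ENSSSCG00000038221), the oxidase that inactivates testosterone and estradiol, showed the largest difference of the 8 members. In untreated pigs, its level in CPM (counts scaled to the size of the library) was 373, 321 and 422 in castrated boars and 235, 365 and 354 in sows. With Sustanon it was 4.79, 2.71 and 35.3 CPM in castrated boars and 30.0, 3.32 and 8.57 CPM in sows. All 6 Sustanon-treated pigs were below every untreated pig, a separation in the lower direction that 1.27% of tested genes showed, and castrated boars and sows overlapped within each of these groups. HSD17B2 was 24.6-fold lower with Sustanon (log2 fold change -4.62, SE 0.82, adjusted p = 0.00214, edgeR quasi-likelihood test). The call held with each of the 24 libraries left out in turn, with adjusted p up to 0.00697, and without the 3 libraries against their labelled sex, with adjusted p = 0.0210.

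Across all classes the log2 fold change of HSD17B2 with Sustanon was -4.58 (SE 0.90, adjusted p = 0.0114). This comparison also contains uncastrated boars, in which the level was low without treatment, so that only 4 of 8 Sustanon-treated pigs were below every untreated pig. Without the 3 libraries against their labelled sex the value was -4.32, adjusted p was 0.116, and 0 genes of the whole table were called by edgeR, with 1199 genes at an unadjusted p under 0.05.

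**Figure D2:**
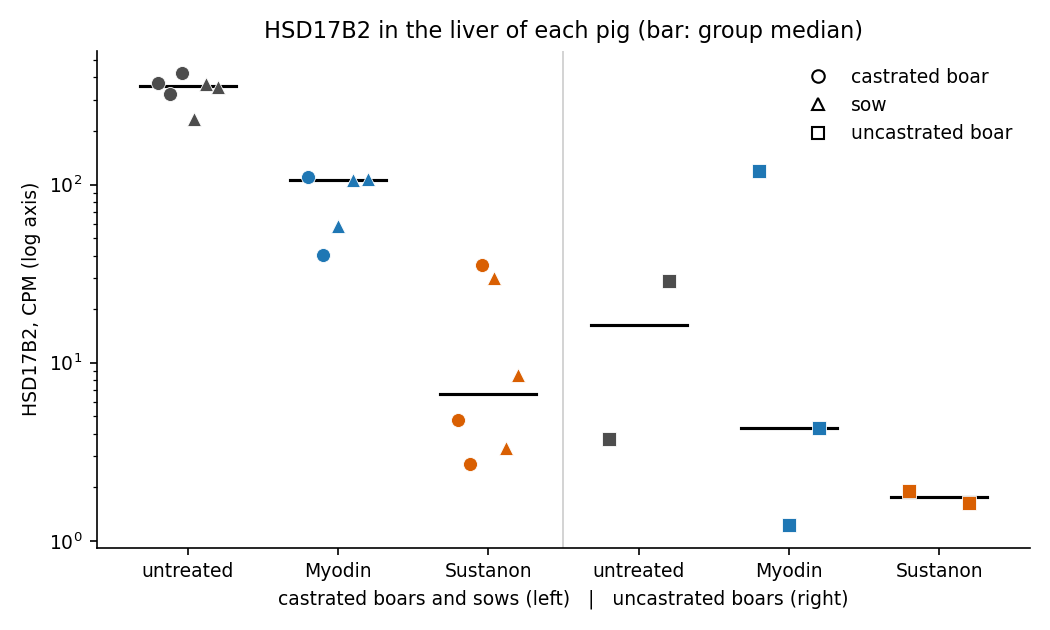
HSD17B2 in CPM (log axis) in each pig, by treatment, for castrated boars (circles) and sows (triangles) on the left and uncastrated boars (squares) on the right, with the group median as a bar. The 6 untreated pigs without testes lie between 235 and 422 CPM, above all other pigs, and the 2 Sustanon-treated boars at 1.62 and 1.91 CPM.

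With Myodin, HSD17B2 lay between the other groups. It was 110.0 and 40.2 CPM in castrated boars and 58.4, 107 and 107 CPM in sows. All 5 of these pigs were below every untreated and above every Sustanon-treated pig without testes, and a separation in the lower direction was seen for 0.906% of tested genes from untreated pigs and for 1.69% in Sustanon-treated against Myodin-treated pigs. The difference from untreated pigs was not called (log2 fold change -2.02, SE 0.77, adjusted p = 0.380, and 0.834 without the 3 libraries against their labelled sex). None of the 8 members was called with Myodin in these pigs by edgeR, where 0.0343% of 8754 genes were called, nor by DESeq2, and 1 member had an unadjusted p under 0.05, as had 10.1% of genes. When only these Myodin-treated and untreated pigs were fitted, HSD17B2 was called (adjusted p = 0.00482, edgeR). The share of all genes called in that smaller fit is not given here. The other 7 alternatives and all 24 fits with 1 library left out did not call HSD17B2. Across all classes 0 members were called by edgeR or DESeq2 and 2 had an unadjusted p under 0.05, where 0% of genes were called and 597 genes (7.21%) had an unadjusted p under 0.05. HSD17B2 then had a log2 fold change of -1.94 (SE 0.79, adjusted p = 0.584).

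The 2 preparations differed in dose and ester as well as in steroid, so that their values stand side by side as regimens. Between Sustanon and Myodin in castrated boars and sows the log2 fold change of HSD17B2 was -2.60 (95% interval -4.11 to -1.08, adjusted p = 0.0688), and no member was called by edgeR, where 1.04% of genes were called (0.354% lower), 2.43% passed the adjusted p alone, and 5 members and 19.4% of genes had an unadjusted p under 0.05. DESeq2 and limma called HSD17B2 in this comparison, with adjusted p = 0.0320 and 0.0487, and so did edgeR without Sustanon castrated boar 3, Myodin boar 22 or Myodin boar 23, with adjusted p between 0.0116 and 0.0356. The other 6 alternatives and the other 21 fits with 1 library left out did not. Over the whole table DESeq2 called more and limma fewer genes than edgeR between the regimens. For the other 7 members the log2 fold changes between the regimens ran from -0.83 for HSD17B11 to 0.68 for HSD17B7.

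Uncastrated boars had little HSD17B2 without any treatment. The 2 untreated boars had 3.74 and 28.8 CPM, and both were below every untreated castrated boar and sow. HSD17B2 was 21.6-fold lower in them, but the difference was not called (log2 fold change -4.43, SE 1.32, adjusted p = 0.103, and 0.195 without the 3 libraries against their labelled sex). The size rests on the 2 boars, with log2 fold changes of -3.60 without boar 25 and -6.54 without boar 27. DESeq2 (adjusted p = 0.00466), limma (0.0208), edgeR on these 2 groups alone (0.00890) and edgeR without Myodin boar 22 (0.0219) called it. The other 5 alternatives and the other 23 fits with 1 library left out did not. DESeq2 also called more genes of the whole table than edgeR here, and no share of all genes is given for the other fits that called it. Of the 8 members, 4 were lower in both boars than in every untreated pig without testes, namely HSD17B2, HSD17B6, HSD17B10 and HSD17B11, and 9.52% of tested genes were separated in that direction. None was called by edgeR, against 0.822% of genes called (0.4% lower), and 2 members and 14.5% of genes had an unadjusted p under 0.05.

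With Sustanon, the 2 uncastrated boars had 1.91 and 1.62 CPM of HSD17B2, from 22 and 17 counts. Both lay below the 2 untreated boars, but so did 25.8% of tested genes, and the log2 fold change was -3.19 (SE 1.53, adjusted p = 0.464). Without untreated boar 25 it was -4.00 and without untreated boar 27 it was -1.08. The 3 Myodin-treated boars were unlike each other, with 119, 1.22 and 4.33 CPM in boars 22, 23 and 24. Their log2 fold change against untreated boars was 1.39 (SE 1.19, adjusted p = 0.771) and turned to -2.51 without boar 22. The effect of Sustanon on HSD17B2 was not shown to differ between pigs with and without testes (difference of log2 fold changes 1.43, 95% interval -1.98 to 4.84, adjusted p = 0.889), and this difference was 0.61 without untreated boar 25 and 3.53 without boar 27. That of Myodin differed by 3.41 (adjusted p = 0.357) with boar 22 and by -0.49 without it. By edgeR over all 24 libraries 0 members were called in uncastrated boars with either treatment, where 0% of genes were called in each case and 931 genes (10.6%) with Sustanon and 797 (9.1%) with Myodin had an unadjusted p under 0.05. Of the members, 4 and 1 had such a p, and DESeq2 called HSD17B6 with Sustanon and HSD17B7 with Myodin. How many of all genes DESeq2 called in these boars is not given here, so the DESeq2 calls have no background beside them.

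HSD17B11 (ENSSSCG00000009225), a lipid droplet and endoplasmic reticulum enzyme that oxidises androstanediol, was the second member called lower with Sustanon. Untreated castrated boars had 2990.1, 3084 and 1999 CPM and untreated sows 3278, 2291 and 2774 CPM. With Sustanon the castrated boars had 1031, 634 and 2061 CPM and the sows 2271, 530.5 and 816 CPM. Castrated boar 3 and sow 4 overlapped with the untreated pigs, and the other 4 Sustanon-treated pigs were below all of them. HSD17B11 was 2.24-fold lower (log2 fold change -1.17, SE 0.34, adjusted p = 0.0477, edgeR quasi-likelihood test). This call stood close to the threshold and was lost in 19 of the 24 fits with 1 library left out, where adjusted p ran from 0.0174 to 0.115; it held without Sustanon castrated boar 3, Sustanon sow 4, Myodin sow 11, Myodin boar 22 or Myodin boar 23. It was also lost without the 3 libraries against their labelled sex (adjusted p = 0.174).

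Across all classes HSD17B11 was lower with Sustanon by a log2 fold change of -1.24 (SE 0.34, adjusted p = 0.0324). The call was lost in 9 of the 24 fits with 1 library left out, with adjusted p up to 0.0727, namely without Sustanon pigs 2, 5, 6, 19 or 20 or untreated pigs 13, 14, 16 or 18, and without the 3 libraries against their labelled sex (adjusted p = 0.172). Uncastrated boars had 1476 and 1751 CPM untreated, 439 and 529 CPM with Sustanon, and 2608, 569 and 1564 CPM with Myodin. In boars Sustanon gave a log2 fold change of -1.74 (SE 0.60, adjusted p = 0.315), which edgeR called when only the 2 groups were fitted (adjusted p = 0.0415). The other 7 alternatives and all 24 fits with 1 library left out did not call it. The share of all genes called in that smaller fit is not given here. Both Sustanon-treated boars were below both untreated boars, a separation that 25.8% of tested genes showed. Castrated boars with Myodin had 2646 and 1529 CPM and sows 2024, 3039.7 and 1529 CPM, which overlapped with untreated pigs (log2 fold change -0.34, adjusted p = 0.787).

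**Figure D3:**
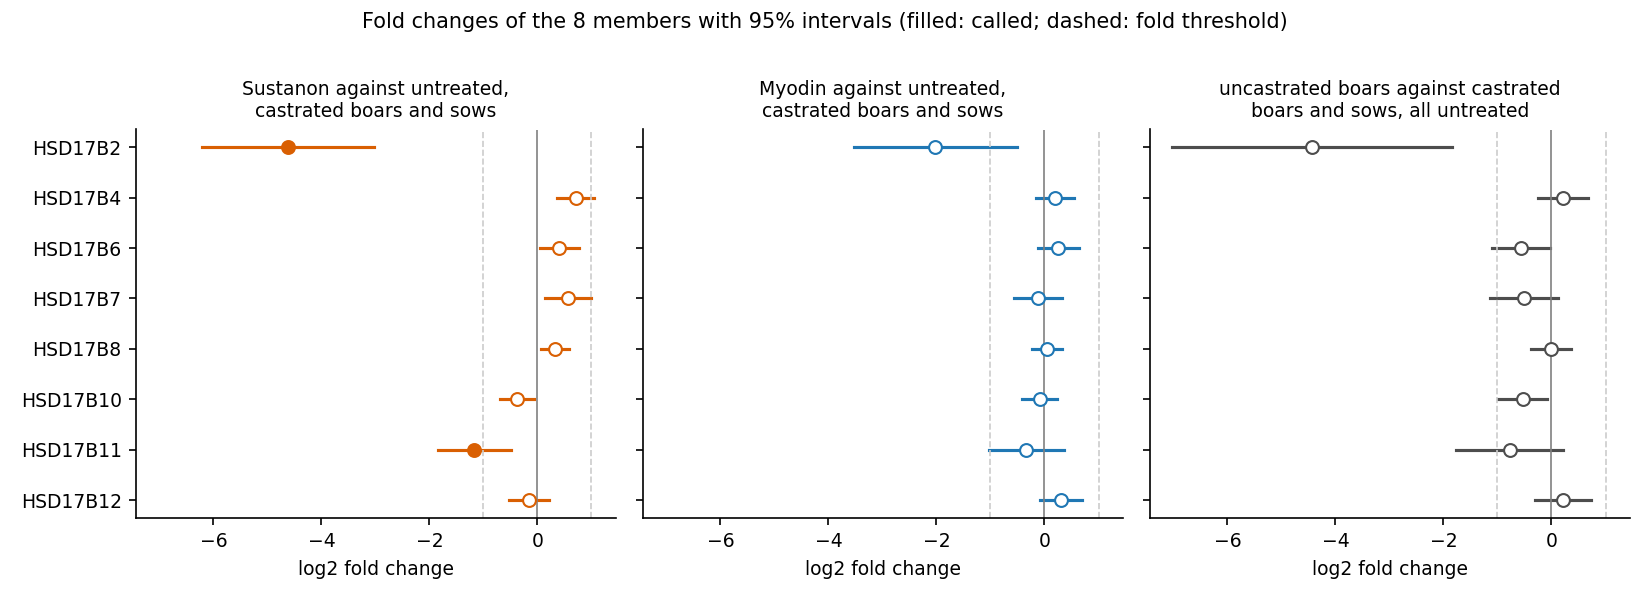
Log2 fold change of each member with its 95% interval for Sustanon and for Myodin against untreated castrated boars and sows, and for uncastrated boars against castrated boars and sows without treatment. Filled points are called and dashed lines mark the fold change threshold of 1; only HSD17B2 at -4.62 and HSD17B11 at -1.17, both with Sustanon, are filled.

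HSD17B6, a microsomal enzyme that oxidises androstanediol back towards dihydrotestosterone, was not called in any comparison by edgeR. In castrated boars and sows it ranged from 458 to 612 CPM (median 586) untreated, from 469 to 926 (median 855) with Sustanon, and stood at 525, 649, 1024, 582 and 603 CPM with Myodin. The ranges overlapped, and 4 of 6 Sustanon-treated pigs were above all untreated pigs (log2 fold change 0.41, SE 0.19, adjusted p = 0.236). The 2 untreated boars had 433 and 342 CPM and the 2 Sustanon-treated boars 1059.7 and 711 CPM, without overlap. That difference had a log2 fold change of 1.19 (SE 0.33, adjusted p = 0.221 by edgeR), and 25.1% of tested genes were separated in the same direction between these boars. Over all classes its log2 fold change was 0.60 (SE 0.18, adjusted p = 0.0514).

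HSD17B7 reduces zymosterone in cholesterol synthesis and can reduce estrone. It ranged from 83.9 to 128 CPM (median 103) in untreated and from 74.3 to 213 CPM (median 165) in Sustanon-treated castrated boars and sows, and was 96.1, 87.8, 81.5, 83.1 and 130.0 CPM with Myodin. Sustanon castrated boar 3 was below every untreated pig and 4 of the 6 were above all of them (log2 fold change 0.56, SE 0.22, adjusted p = 0.149). In uncastrated boars it was 49.5 and 99.2 CPM untreated, 204 and 139 CPM with Sustanon, and 168, 277 and 198 CPM with Myodin. All treated boars were above both untreated boars, which 9.76% of tested genes showed with Myodin and 25.1% with Sustanon. The log2 fold change with Myodin in boars was 1.55 (SE 0.36, adjusted p = 0.140), and with Sustanon it was 1.20 (SE 0.38, adjusted p = 0.268). The effect of Myodin on HSD17B7 differed between pigs with and without testes by 1.67 (SE 0.42), which was not called by edgeR (adjusted p = 0.118). DESeq2 called both of these Myodin values, with adjusted p = 0.0129 and 0.0172, as did edgeR without Myodin boar 22, with adjusted p = 0.0238 and 0.0314. Leaving out that boar also raised the number of genes called over the whole table in both comparisons, so the calls without it are not particular to HSD17B7. The share of all genes that DESeq2 called for these values is not given here. No other member was called for a difference in effect between pigs with and without testes, where 0.0914% of genes were called for Myodin (0.08% lower) and 0.0457% for Sustanon. An unadjusted p under 0.05 was reached by 2 members and 12% of genes for Myodin and by 1 member and 6.92% of genes for Sustanon.

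HSD17B4, the peroxisomal multifunctional enzyme of beta-oxidation, was higher with Sustanon by less than the fold change threshold. It ranged from 325 to 569.9 CPM (median 423) in untreated and from 511 to 898 CPM (median 724) in Sustanon-treated castrated boars and sows. All 6 Sustanon-treated pigs were above the untreated median and 4 of them above every untreated pig. The log2 fold change was 0.71 (SE 0.17, adjusted p = 0.0171), and 0.64 (SE 0.15, adjusted p = 0.0151) over all classes. Without the 3 libraries against their labelled sex adjusted p was 0.105 and 0.116. With Myodin it was 508, 580.1, 556, 422 and 389.7 CPM in castrated boars and sows, and the log2 fold change was 0.20 (adjusted p = 0.743).

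The remaining members were not called in any comparison by edgeR. HSD17B8, a subunit of the reductase of mitochondrial fatty acid synthesis, stood between 44.7 and 96.1 CPM in all 24 pigs and had a log2 fold change of 0.33 (SE 0.13, adjusted p = 0.176) with Sustanon in castrated boars and sows. HSD17B10, which also belongs to the mitochondrial ribonuclease P, stood between 247 and 702 CPM and had a log2 fold change of -0.38 (SE 0.16, adjusted p = 0.187). HSD17B12, the ketoacyl reductase of very long chain fatty acid elongation, stood between 75.9 and 180.2 CPM and had a log2 fold change of -0.15 (SE 0.19, adjusted p = 0.742). For these 3 members the groups overlapped in castrated boars and sows, whereas HSD17B2 spanned a 345-fold range over the same 24 pigs.

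**Figure D4:**
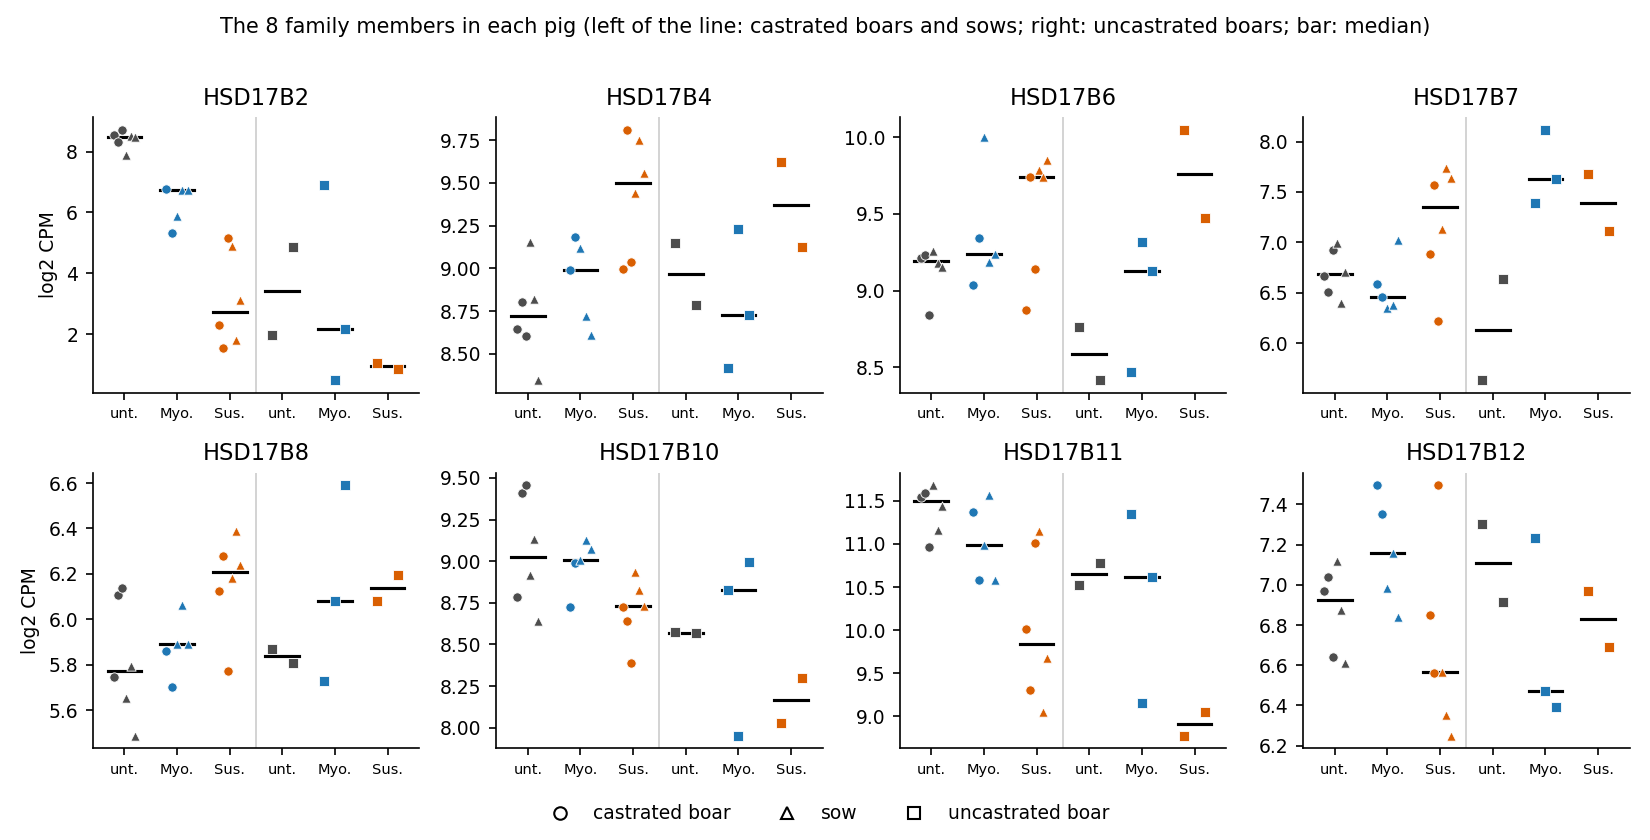
Log2 CPM of each member in each pig, by treatment (unt., untreated; Myo., Myodin; Sus., Sustanon), for castrated boars and sows left of the line and uncastrated boars right of it, with medians as bars; each panel has its own axis. HSD17B2 is the member whose 3 groups without testes do not overlap, and HSD17B11 is low in most Sustanon-treated pigs.

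Sustanon-treated pigs with more HSD17B2 also had more HSD17B11. Over the 8 pigs, log2 CPM of both genes had a Pearson's r of 0.955 (exact permutation p = 0.00186, 0.0130 after Benjamini-Hochberg adjustment over the 7 other members) and a Spearman's rho of 0.905 (exact permutation p = 0.00456, adjusted p = 0.0319). Castrated boar 3 and sow 4 were high in both genes and the 2 uncastrated boars low in both. Without boar 3 and sow 4, the 2 pigs farthest from the median of HSD17B2, r was 0.770 (n = 6, exact permutation p = 0.0736), so that the relation rests in part on these 2 pigs. Within the 6 castrated boars and sows r was 0.942 (exact permutation p = 0.0153) and rho 0.829 (exact permutation p = 0.0583), and neither passed the adjustment over the 7 other members (adjusted p = 0.107 and 0.360).

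In the 8 Myodin-treated pigs r between HSD17B2 and HSD17B11 was 0.846 (exact permutation p = 0.00632, adjusted p = 0.0443), but rho was 0.667 (adjusted p = 0.185, exact permutation test). Pearson's r was 0.604 (n = 6, exact permutation p = 0.226) without uncastrated boars 23 and 24, the 2 pigs farthest from the median of HSD17B2. The relation thus rests on these 2 boars. In the 6 untreated castrated boars and sows r had the opposite sign, -0.754 (exact permutation p = 0.0667, adjusted p = 0.220), and 3 of these 6 libraries went against their labelled sex, which left too few pigs for a value without them. The other 6 members were not related to HSD17B2 past the adjusted threshold in any of these 3 sets.

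**Figure D5:**
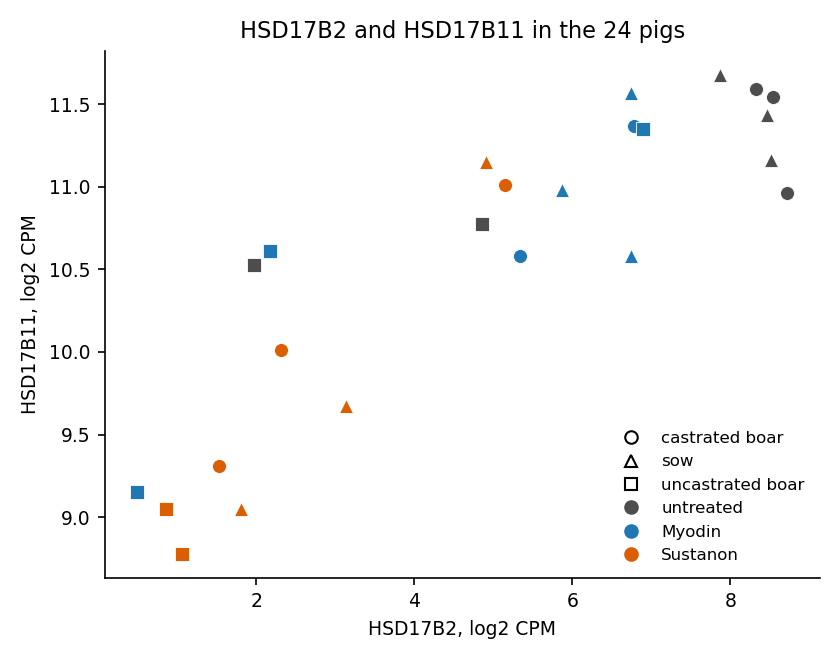
Log2 CPM of HSD17B11 against that of HSD17B2 in the 24 pigs, with colour for treatment and shape for class. Among the 8 Sustanon-treated pigs a higher level of one gene goes with a higher level of the other (r = 0.955), and the 6 untreated pigs without testes stand apart at the right.

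Genes whose pattern over the 24 pigs was most like that of HSD17B2 were CYP2A19 (Pearson's r 0.946), FMO5 (0.932), SDR42E1 (0.929), ACAA2 (0.925) and DLG2 (0.902), among 6705 genes ranked on log2 CPM. For HSD17B11 they included ETFRF1 (0.908), CYP2A19 (0.907), SDR42E1 (0.902) and ACAA2 (0.900). These values describe pigs that share treatment groups and libraries, and 3 genes stood in both lists.

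The enzymes that work beside the members were followed in lists compiled by hand, for Sustanon against untreated castrated boars and sows. Of 18 other steroid oxidoreductases 5 were tested, with a median log2 fold change of 0.11 against -0.01 over all genes. Among them DHRS4, a retinal and ketone reductase that the study had itself picked in these livers, rose (log2 fold change 1.82, adjusted p = 0.000313, edgeR), and SDR42E1, a short-chain dehydrogenase, fell by 1.22 on the log2 scale (adjusted p = 0.0276). The call of SDR42E1 was lost without Sustanon pigs 2, 5 or 6 or untreated pigs 13 or 18, with adjusted p up to 0.0776, and that of DHRS4 held in all 24 fits with 1 library left out. DHRS4 ranged from 370.2 to 522 CPM in untreated and from 487 to 2245 CPM in Sustanon-treated pigs, and was at 1135 and 1697 CPM in the 2 untreated boars. SDR42E1 ranged from 29.1 to 58.1 CPM untreated and from 8.70 to 31.9 CPM with Sustanon, and both genes overlapped between these groups.

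Of the peroxisomal partners of HSD17B4, 8 of 15 were tested and CROT, the carnitine transferase that releases shortened fatty acids from peroxisomes, rose (log2 fold change 1.85, adjusted p = 0.00487), from 178 to 355 CPM untreated to 351 to 1442 CPM with Sustanon. The list's median log2 fold change was -0.17. Among 13 tested partners of HSD17B7 in cholesterol synthesis none was called, 10 had a positive and 3 a negative log2 fold change, and the median was 0.21. Of 11 tested lipid droplet genes PNPLA3, a lipid droplet acyl hydrolase, rose (log2 fold change 2.28, adjusted p = 0.0186), from 0.999 to 2.31 CPM untreated to 1.82 to 33.6 CPM with Sustanon, and the list's median was -0.31. PNPLA3 rested on Sustanon sow 6, the pig at 33.6 CPM, without which its log2 fold change was 1.14 and it was not called (adjusted p = 0.0924). Of 10 tested retinoid genes ALDH1A3, which makes retinoic acid, rose (log2 fold change 1.12, adjusted p = 0.0234) and the median was 0.29. Its call was lost without Sustanon pig 2 or untreated pigs 13, 14 or 15, with adjusted p up to 0.0669. Without the 3 libraries against their labelled sex DHRS4 and CROT were still called (adjusted p = 0.0210 and 0.0370), whereas SDR42E1, PNPLA3 and ALDH1A3 were not (0.125, 0.147 and 0.175). None was called among 6 tested genes of steroid hydroxylation and conjugation, 3 sex steroid receptors, 4 partners each of HSD17B8 and HSD17B10, and 6 elongation partners of HSD17B12. Over all lists, 4 of 70 partners tested were called higher and 1 lower, where 1.36% of all genes were called higher and 0.663% lower. This tally is no test of the partners. It counts DHRS4, which the study picked from these same livers, and the lists were compiled with earlier results of these data known.

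Other cell types were followed by their markers. The summed level of the 4 pericentral hepatocyte markers in the tables, of 6 on the list, ranged from 212 to 502 TPM in untreated and from 60.9 to 456 TPM in Sustanon-treated castrated boars and sows, and was 341 and 347 TPM in untreated and 76.0 and 99.7 TPM in Sustanon-treated uncastrated boars. Of the stellate and stromal markers 3 of 7 were in the tables, and their sum ranged from 37.2 to 118 TPM untreated and from 83.2 to 167 TPM with Sustanon. The groups overlapped in castrated boars and sows for both lists. In uncastrated boars the pericentral sums did not overlap, and all 4 pericentral markers were negative (median log2 fold change -1.49). Periportal hepatocyte markers, 4 of 6 on the list, summed to between 11591.4 and 18218.2 TPM in untreated and between 9231 and 11599.9 TPM in Sustanon-treated castrated boars and sows, with 2 markers positive and 2 negative. The 3 red blood cell markers in the tables, of 5 listed, summed to between 2593 and 8289 TPM untreated and between 1443 and 5828 TPM with Sustanon, and all 3 were negative (median log2 fold change -0.81). Bile duct, endothelial, and Kupffer cell and leukocyte markers, 3 each in the tables, had median log2 fold changes of -0.20, -0.13 and -0.01. The medians were 0.71 for stellate and stromal markers, with all 3 positive, -0.46 for pericentral markers, with 3 of 4 negative, and 0.11 for hepatocyte markers, with 5 of 6 positive. None of the markers was called with Sustanon in castrated boars and sows or in uncastrated boars. Hepatocyte markers, 6 of 7 on the list, summed to between 112158 and 167219 TPM untreated and between 129174 and 187594 TPM with Sustanon. In untreated boars against castrated boars and sows all 4 periportal markers were negative (median log2 fold change -0.54), and so were the 3 red blood cell markers (-0.35), whereas stellate and stromal markers had a median of 0.76 with 2 of 3 positive. With Myodin in uncastrated boars the red blood cell (-1.46), stellate and stromal (-0.95), bile duct (-0.57) and pericentral (-0.45) markers were all negative, and in castrated boars and sows the bile duct (-0.58) and red blood cell (-0.28) markers were. Summed hepatocyte markers ranged from 80238 to 119273 TPM in Myodin-treated boars, below the 141267 and 155545 TPM of the 2 untreated boars. Of these 6 markers 3 had a positive and 3 a negative log2 fold change. None of these markers was called in these comparisons by edgeR. The part of these cell types in the values of HSD17B2, HSD17B7 and HSD17B11 was not tested.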

How the data were processed

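RNAseq libraries were prepared from polyA RNA with a stranded kit. Per the labels and the methods, the authors used Skewer for trimming and STAR 2.5 for alignment, with Sscrofa11.1 as the genome. They deposited raw counts per gene and the same libraries as log2(TPM + 1). The counting tool and the treatment of reads shared by similar genes are not given in the sources used here. The counts were tested with edgeR 4.0.16 under R 4.3.3 (TMM, filterByExpr, quasi-likelihood test, two-sided, Benjamini-Hochberg over all genes tested) in a fit of 3 treatment groups and a fit of 6 groups of treatment by testes, each over all 24 libraries, and the code was tested on simulated data. CPM used TMM factors, and log2 CPM a prior count of 2. TPM were converted back from the log2 values with the pseudocount of 1. Alternatives were DESeq2 1.42.0, limma 3.58.1 on the log2 values, RLE factors, no filter beyond 1 count, other thresholds, other groupings or covariates, and libraries left out (for listed genes and neighbours, chosen after seeing the data). Correlations used exact permutation. All 8 members are named; other genes are named if called and on a list, or among the 5 most like HSD17B2 or HSD17B11, of which 1 is not reported here. Members and lists were chosen with earlier results of these data known. In the column headers, Sustanon sow 6 carries the group tag of castrated boars and was kept under its label.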

Additional observations from a re-analysis of the deposited data

Results flagged for a closer look

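Of 24 tests for a pig far from the others of its group, over the 8 members and the 3 groups of 5 or 6 pigs, 1 was past Dixon's critical value, about the number that chance gives (1 in 20). HSD17B6 had a log2 CPM of 8.84 in untreated castrated boar 15, where the other 5 untreated pigs without testes stood between 9.15 and 9.26. The gap was 0.751 of the range, against a critical value of 0.625 for 6 pigs. This library is also one of the 3 against their labelled sex.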

How the results depend on the processing

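Of 2544 alternative values of the members' log2 fold changes, 2457 kept their direction and their side of the threshold, 34 lost and 16 gained a call, and 37 changed direction. The cause was not tested. Few uncastrated boars and counts of 13 to 98 per library limit the low levels of HSD17B2. No paired analysis was possible because the groups share no replicate numbers.

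The 2 members called with Sustanon over all classes became 0 without the 3 libraries against their labelled sex, and 1 to 2 with 1 library left out. The 2 in castrated boars and sows became 1 without those libraries, without untreated castrated boar 15, with only the 2 groups, and with 9 groups, and 1 to 2 with 1 library left out. By an unadjusted p with the fold change threshold, 1 member was called with Myodin over all classes, 1 with Myodin in castrated boars and sows, 1 between the regimens, 4 with Sustanon and 1 with Myodin in uncastrated boars, 1 in untreated boars, and 2 for the difference in Myodin effect. The share of all genes under this looser rule is not given here, so these counts have no background beside them. An unadjusted p under 0.05 alone was reached by 7.21% of genes with Myodin over all classes and by up to 19.4% between the regimens. DESeq2 called 1 member between the regimens, 1 with each treatment in uncastrated boars, 1 in untreated boars and 1 for the Myodin difference, limma 1 between the regimens and 1 in untreated boars, and a fit of only the 2 groups 1 with Myodin in castrated boars and sows, 1 with Sustanon in uncastrated boars (HSD17B11, adjusted p = 0.0415) and 1 in untreated boars. The share of all genes called in the fits of only 2 groups is not given here. With 1 library left out, 0 to 1 were called between the regimens, with Myodin in uncastrated boars, in untreated boars and for the Myodin difference. Members related to HSD17B2 became 2 with log2(TPM + 1) in Sustanon pigs, and 0 to 1 in Myodin pigs with 1 left out.

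Values that changed direction were near 0 or rested on few boars. Without the libraries against their labelled sex, HSD17B7 was 0.0598 and HSD17B8 -0.00043 with Myodin in castrated boars and sows, and the Sustanon effect differed by 0.0224 for HSD17B8 and 0.0196 for HSD17B10. With limma, HSD17B2 and HSD17B10 were both -0.16 with Myodin in uncastrated boars, HSD17B8 was 0.18 in untreated boars (0.0548 without untreated castrated boar 15), and the Myodin effect differed by -0.0025 for HSD17B6, -0.10 for HSD17B10 and -0.0915 for HSD17B11. With 1 library left out, HSD17B8 ran from -0.015 to 0.12 with Myodin in castrated boars and sows and from -0.0654 to 0.0548 in untreated boars. In Myodin boars HSD17B2 ran from -2.51 to 3.49, HSD17B4 from -0.39 to 0.0840, HSD17B10 from -0.10 to 0.35 and HSD17B11 from -0.57 to 0.38. The Sustanon difference ran from -0.10 to 0.0303 for HSD17B8, -0.17 to 0.10 for HSD17B10 and -0.33 to 0.0803 for HSD17B12, and the Myodin difference from -0.49 to 5.51 for HSD17B2, -0.0043 to 0.40 for HSD17B6, -0.0114 to 0.45 for HSD17B10 and -0.23 to 0.72 for HSD17B11.

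Over all genes, calls with Sustanon in castrated boars and sows numbered 177, against 73 without the libraries against their labelled sex, and over all classes 129 against 0. Between the regimens they numbered 91, against 153 by DESeq2 and 60 by limma, and in untreated boars 72, against 133 by DESeq2 and 6 without untreated boar 27. Without Myodin boar 22 they rose from 0 to 118 with Myodin in uncastrated boars and from 8 to 165 for the Myodin difference.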

Other observations

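Genes beside HSD17B2 on the chromosome were looked up after its values were known. In RefSeq's annotation of Sscrofa11.1 the gene lies at chr6:6296429-6360434, and 9 other genes lie within 500 kb of it, of which 4 were tested. SDR42E1, at chr6:6387280-6400371, begins 26846 bp after its end and PLCG2, a phospholipase C, at chr6:6433146-6603092, begins 72712 bp after it. Both were called lower with Sustanon in castrated boars and sows by edgeR, as were 0.663% of all genes, with log2 fold changes of -1.22 (SE 0.32, adjusted p = 0.0276) and -1.39 (SE 0.23, adjusted p = 0.00112). The call of PLCG2 held in all 24 fits with 1 library left out and without the 3 libraries against their labelled sex (adjusted p = 0.0210), under which that of SDR42E1 was lost (0.125). In castrated boars and sows PLCG2 ranged from 28.3 to 54.4 CPM untreated and from 11.2 to 26.7 CPM with Sustanon, without overlap. A separation in this direction was seen for 1.27% of tested genes. PLCG2 stood at 16.3 and 16.8 CPM in the 2 untreated uncastrated boars. CMIP and CDH13, farther away on either side, had log2 fold changes of 0.05 and 0.09. The locus LOC110260906 overlaps the interval of HSD17B2, so that reads could be shared between them, and was not tested.

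The other members with a RefSeq entry lie elsewhere, HSD17B4 at chr2:123313445-123401386, HSD17B12 at chr2:18461487-18611761, HSD17B7 at chr4:87720747-87743037, HSD17B8 at chr7:25247577-25249786 and HSD17B10 at chrX:46218540-46220942.

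In untreated uncastrated boars against castrated boars and sows, DHRS4 (log2 fold change 1.54), PNPLA3 (3.22), ALDH1A3 (1.66) and PEX5, the import receptor of peroxisomal proteins (1.09), were called higher by edgeR among the 70 listed partners tested, where 0.423% of all genes were called higher. The lists were compiled with earlier results of these data known, so this number is no test of the partners. The calls of DHRS4, PNPLA3 and ALDH1A3 were lost without untreated boar 25 (adjusted p = 0.324, 0.276 and 0.270) or boar 27 (0.135, 0.0987 and 0.176) and without the 3 libraries against their labelled sex (0.145, 0.129 and 0.145), and that of PEX5 without boar 25 (0.130). PEX5 ranged from 64.7 to 84.2 CPM in untreated castrated boars and sows and was at 139 and 177 CPM in the boars. With Sustanon it ranged from 115 to 163 CPM in castrated boars and sows, above every untreated castrated boar and sow. Such a separation in the higher direction was seen for 2.04% of tested genes. PEX5 passed the adjusted p there with a smaller fold change than a call needs (log2 fold change 0.85, adjusted p = 0.000343, edgeR).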
